A study of Mus musculus with 69 samples.

Results

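The Standard list of H3K79me2 peaks held 34109 narrow gene-body peaks that touched no peak of the early life stress (ELS) list, out of 117819 distinct Standard peaks. A peak was counted when the list placed it in a gene body, gave it no promoter line and a width under 5000 bp, and when not 1 bp of it overlapped an ELS peak. They made up 39% of the 87347 narrow gene-body Standard peaks, and the other 53238 overlapped an ELS peak and are called shared below. By the same rule 7828 of 80636 narrow gene-body ELS peaks (9.71%) stood in the ELS list alone. The peaks were selected on the measured lists themselves, by their overlap with the ELS list, so their number, fold, width and place are given as description with no test.

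The tissue was the nucleus accumbens of male mice reared under Standard conditions or exposed to ELS. The peak lists are 1 per rearing group, beside 9 H3K79me2 and 9 input libraries for Standard and 9 H3K79me2 and 10 input libraries for ELS, whose own peaks were not analysed here, so no replicate error can be given for a peak. RNA came from 4 groups of 8 libraries: Standard GFP, ELS GFP, Standard Dot1l overexpression and ELS Dot1l knockdown, where GFP is the control vector of each rearing. The labels give neither an age, nor the cell type in which a vector was expressed, nor whether animals were pooled, so p-values measure the spread between libraries. RNA libraries held 0.314 to 11.1 M counts (M is 1000000), and 4 lay under 1 M (Standard GFP replicates 1, 4 and 5 and ELS Dot1l knockdown replicate 7). The summed level of 15 medium spiny neuron markers, the main neurons of this tissue, lay between 1607 and 4222 CPM (reads per 1 M of the library) in Standard GFP. Of these 15, Rasgrp2 was listed at 0 in all 32 libraries.

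H3K79me2 is the dimethyl form of lysine 79 on the globular part of histone H3. It is laid down by the methyltransferase DOT1L, which travels with complexes that act on transcribing RNA polymerase II, and it typically covers the first part of the body of transcribed genes and fades towards their end. Neurons transcribe many very long genes for synaptic and adhesion proteins.

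The only sequence at hand for these peaks was the 250 bases before RefSeq gene starts (GRCm38.p6, the same assembly as mm10). Such a window was touched by 0.0997% of the peaks, 34 peaks with 36 windows, against 0.299% of shared peaks. The longest stretches, in 3 genes, are shown because each belongs to the host gene itself, although the list classed the peak as gene body. They are printed 5′ to 3′ on the strand of the gene, only the part inside the peak, with every CG dinucleotide in capitals. Retreg1 (called Fam134b in the list) is a receptor for autophagy of the endoplasmic reticulum, Pde2a a phosphodiesterase of cyclic nucleotides, and Sorl1 a sorting receptor of neurons. The stretches lie at chr15:25933302-25933551 (plus strand), chr7:101450766-101451015 (plus strand) and chr9:42077288-42077463 (minus strand).
Retreg1: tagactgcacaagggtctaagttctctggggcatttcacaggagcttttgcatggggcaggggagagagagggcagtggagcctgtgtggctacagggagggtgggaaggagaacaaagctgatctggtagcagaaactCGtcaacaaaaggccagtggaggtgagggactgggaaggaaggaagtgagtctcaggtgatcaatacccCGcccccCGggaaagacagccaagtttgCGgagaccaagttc
Pde2a: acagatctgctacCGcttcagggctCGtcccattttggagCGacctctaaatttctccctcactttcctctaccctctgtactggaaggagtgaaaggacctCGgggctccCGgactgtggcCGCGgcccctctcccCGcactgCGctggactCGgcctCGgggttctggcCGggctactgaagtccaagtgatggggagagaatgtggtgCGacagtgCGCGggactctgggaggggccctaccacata
Sorl1: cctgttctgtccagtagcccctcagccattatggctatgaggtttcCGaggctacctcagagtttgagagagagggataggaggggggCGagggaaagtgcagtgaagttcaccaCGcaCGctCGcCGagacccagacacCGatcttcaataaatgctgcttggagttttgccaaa

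The peak over the Pde2a window was 297 bp wide with a fold of 1.79, and lay 4126 bp from the nearest ELS peak. Its window held 15 CG dinucleotides, against 4 in that of Retreg1. Over the 36 windows the median was 4 CG, and 8.33% held 10 or more, against 37.8% of all 32851 windows of that length. Windows in shared peaks had a median of 3 CG, and 4.85% held 10 or more. No peak of the set lay on a RefSeq miRNA hairpin, beside only 4 of the 53238 shared peaks.

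These peaks were narrow and low. Their median width was 304 bp (178 to 2484 bp), against 778 bp for shared peaks, and together they covered 12.3 Mb against 60.6 Mb. The authors' fold enrichment ranged from 1.39 to 3.37 with a median of 1.82, against 2.06 for shared peaks. Narrow gene-body peaks in the ELS list only had like values there, with medians of 253 bp and 1.76. The width limit removed nothing: all 3192 gene-body Standard peaks of 5000 bp or more overlapped an ELS peak, the narrowest being those of Pou2f1 (5000 bp), Sipa1l1 (5002 bp) and Tnfaip1 (5004 bp). The widest peaks of the set lay in Csrnp3 (2484 bp), Kalrn (2242 bp), Elp2 (1923 bp), Rras2 (1832 bp) and Ntrk2 (1825 bp).

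The share of Standard peaks missing from the ELS list was lower at higher folds, apart from the lowest class. It was 73% for folds under 1.6, 76.8% for folds from 1.6 to 1.7, 39.9% from 1.9 to 2.0, and 0.688% from 2.4 upward, where 59 of 8572 narrow gene-body peaks had no ELS overlap. In the ELS list the share went from 31.8% under 1.6 and 27.3% from 1.6 to 1.7 down to 0.0733%. By width the Standard share was 78% under 200 bp and 0.0232% from 2000 bp. Folds in both lists fell on a ladder. Counted from the most common fold of the list, 92.6% of Standard peaks lay a whole number of steps of 0.0242 away. For ELS peaks it was 91.2% with steps of 0.0231, both within 0.02 of 1 step.

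**Figure D1:**
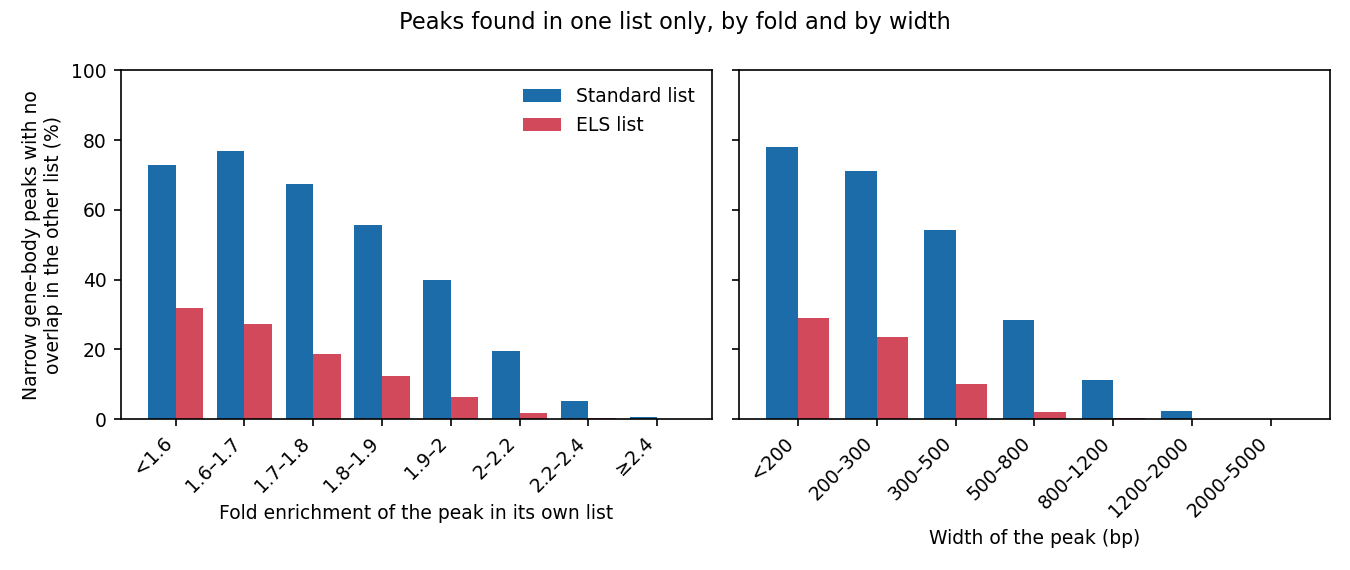
Percentage of narrow gene-body peaks without an overlapping peak in the other list, by fold enrichment (left) and width in bp (right), for the Standard and the ELS list; there is 1 list per group and no error bar. The Standard share runs from 76.8% at folds of 1.6 to 1.7 down to 0.688% at 2.4 and over, and lies above the ELS share in every class of fold.

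The highest folds on different genes show what the upper end holds. The highest, 3.37 (861 bp, chr2:73612419-73613280), lay 162 kb into Chn1, the gene of a GTPase-activating protein of neurons, and also in the antisense gene Chn1os3, 10996 bp from the nearest ELS peak. Whether counting used strand is not stated, so RNA reads of that pair cannot be told apart. It stood above 99.8% of all distinct Standard peaks. Next came Rala (3.05), a small GTPase, and Adora1 (2.96), the adenosine A1 receptor, whose peaks lay only 260 and 880 bp from an ELS peak. Pparg (2.93, chr6:115489890-115490318), the gene of a nuclear receptor, stood apart: its peak was 112565 bp from an ELS peak and the gene had no ELS line at all. Others among the highest were Desi2 (2.74), Fam110b (2.69), Dctn4 (2.69), Smad5 (2.67) and Nbea (2.62).

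Most of the set lay close to ELS peaks. The median gap to the nearest ELS peak was 911 bp, 52.8% lay within 1000 bp and 85.8% within 5000 bp, while 309 lay beyond 100 kb. An ELS peak stood within 5000 bp on both sides of 52.6%, on 1 side of 33.2% and on neither side of 14.2%. To the nearest shared Standard peak the median gap was 1078 bp, against 287 bp from a shared peak to the next. At the limit of the rule, peaks in Tmem194, Fam172a and Kcnma1 abutted an ELS peak at a gap of 0 bp, and those in Kcnq5, Nmnat2 and Tet1 were shared by an overlap of 1 bp. In all, 150 peaks of the set had a gap under 10 bp, and 160 shared peaks an overlap under 10 bp.

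The peaks were joined into runs where no other Standard peak lay between and the gap was at most 10000 bp. They formed 19583 runs, of which 11793 were single peaks, so 65.4% of the peaks had a neighbour of their own kind. The set made up 39% of all narrow gene-body Standard peaks. Whether 65.4% exceeds what that share alone would give was not tested. The longest run held 17 peaks over 59.1 kb of Palm2, followed by 16 over 63.7 kb of Lsamp. Runs of 13 lay in Pde7b, Jazf1 and Ephb1.

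The peaks lay in 5285 genes, 82.3% of the 6423 genes with any narrow gene-body Standard peak, called host genes here. A host gene held a median of 3, and 500 genes held 50% of all pairs of peak and gene. Dlg2, which encodes a scaffold of the postsynaptic density, held the most, 206 of its 479 narrow peaks. It was followed by Csmd1 (174), the adhesion gene Lsamp (162), the neurexin Nrxn3 (138), the RNA-binding Celf2 (128), Dlgap2 (117), the splicing regulator Rbfox1 (114), Ctnnd2 and Negr1 (111 each) and Phactr1 (109). As a share of each gene's narrow Standard peaks, these counts ran from 35.7% in Dlgap2 to 61.6% in Lsamp. Over all narrow gene-body Standard peaks the share was 39%. Csmd1 and Celf2 (39.8% each) stood near it, and Ctnnd2 (37.4%) and Dlgap2 below it. By summed length Dlg2 also led with 80.4 kb, and Lsamp had 59.9 kb. The whole covered length in Lsamp was 143 kb in the Standard and 58.8 kb in the ELS list.

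Most host genes were marked in both lists. An ELS gene-body peak stood in 89.3% of them, and 283 had no ELS line, with 445 peaks of the set. Of the host genes, 4797 had more peaks in the Standard list only than in the ELS list only, against 101 with fewer. Host genes were chosen for holding a peak of the first kind, which bears on that count: 2928 genes had an ELS-only peak, and 2590 of them were host genes. Among 1182 genes with 20 or more narrow Standard peaks the share in the Standard list alone had a median of 35.7%. The ends of that range, genes picked after their values were seen, were Ptprd (23 of 25 peaks), a receptor phosphatase of synapses, and Arhgap20 (1 of 26).

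**Figure D2:**
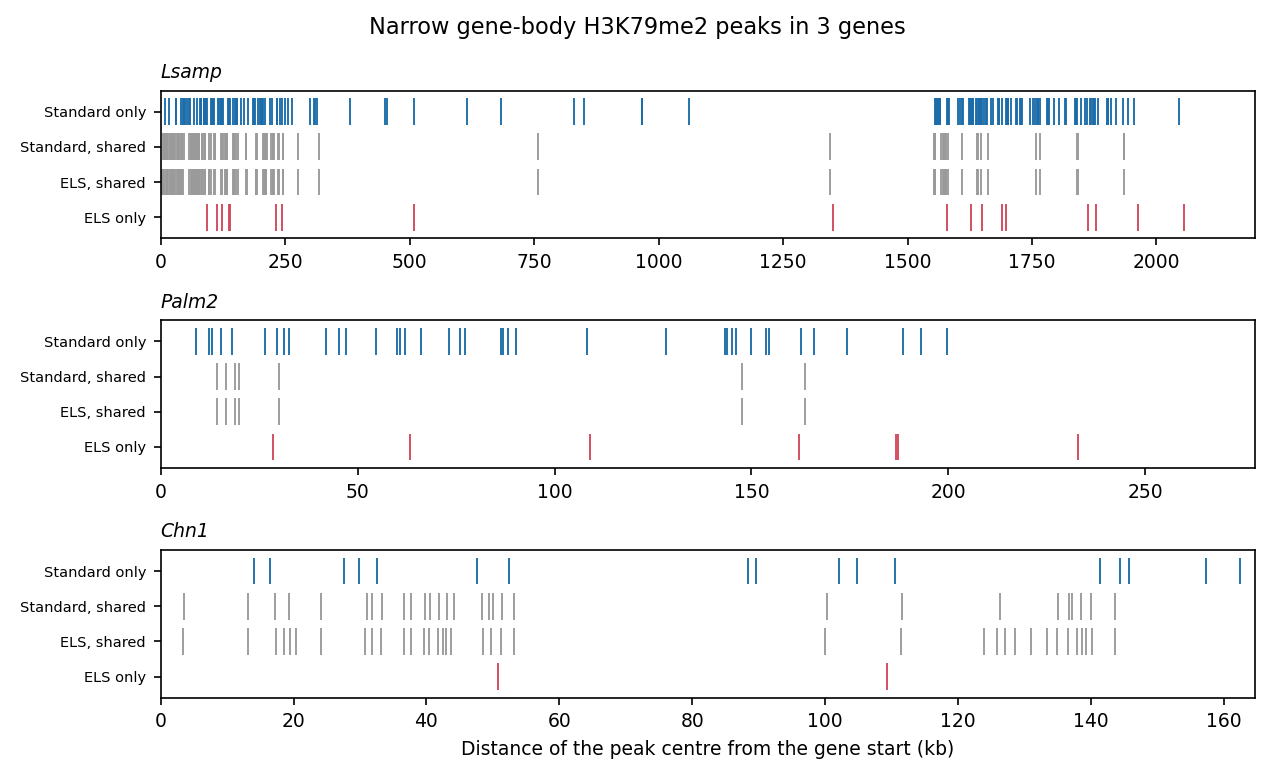
Narrow gene-body peaks of Lsamp, Palm2 and Chn1 by distance of the peak centre from the gene start in kb, in 4 rows: Standard only (blue), Standard peaks overlapping an ELS peak and ELS peaks overlapping a Standard peak (grey), and ELS only (red). Lsamp holds 162 blue and 18 red marks and Palm2 39 and 7, and in Palm2 no grey Standard mark stands between 30.1 and 148 kb, a stretch that holds blue ones.

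Within genes the peaks lay farther from the start than shared peaks. Their median distance was 59.7 kb, or 0.398 of the gene's span, against 44.2 kb and 0.332. The peaks in the ELS list only had the like values of 64.5 kb and 0.400. In 1518 genes with at least 5 of each kind, the median peak of the set was the farther in 1241 (81.8%), by a median of 13.0 kb. The share of narrow peaks in the Standard list alone was 32% within 5 kb of the start and 48.5% from 200 to 500 kb, and the share of ELS peaks in the ELS list alone was 6.16% and 16.4% at these distances. Of the pairs of peak and gene, 79.9% lay between ELS peaks of the same gene, 14.4% beyond the last, 3.42% before the first and 2.34% in a gene with no ELS gene-body peak. Host genes had a median span of 54.7 kb, against 23 kb for genes with narrow Standard peaks of which none was in the Standard list alone.

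**Figure D3:**
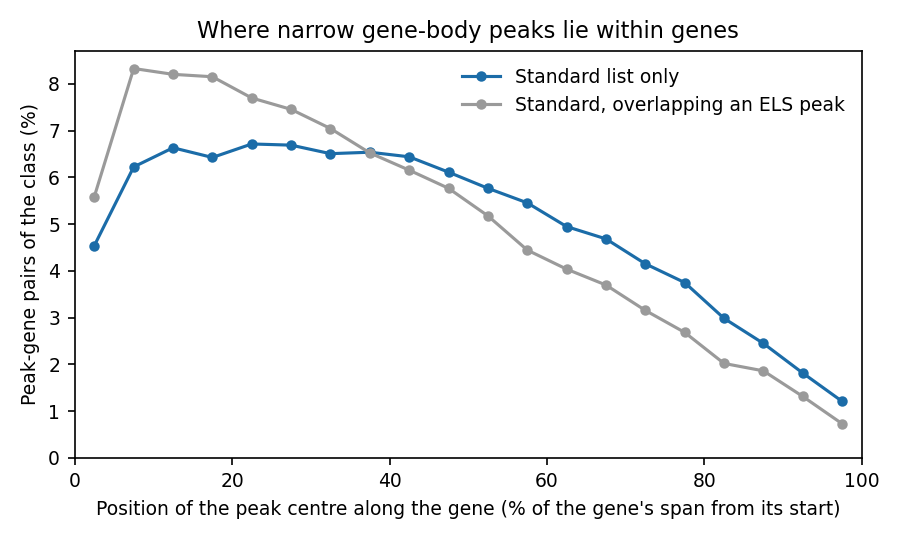
Percentage of peak-gene pairs by position of the peak centre along the gene, in steps of 5% of the gene's span from its start, for peaks in the Standard list only and for shared Standard peaks. The shared peaks pile up in the first part of the gene (8.33% in the second step) while the Standard-only peaks are spread more evenly (6.22% there).

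The X chromosome stood apart. Of its 98 narrow gene-body Standard peaks 91 (92.9%) had no ELS overlap, against 36.3% to 41.4% on the autosomes. The ELS list held only 11 such peaks on X, of which 4 (36.4%) had no Standard overlap. On the autosomes that ELS share was 7.95% to 10.6%. X held few peaks in the Standard list as well, 110 of any class, against 3000 to 10419 per autosome. The 91 peaks had a median fold of 1.77, close to the 1.82 of autosomal ones. They lay in 25 genes, 17 of them with no ELS line. Among them Tbl1x, of a corepressor complex, held 11, and Usp9x, a deubiquitinase, and Zfx 9 each. The 5 peaks farthest from any ELS peak all lay in Zfx, 11.8 Mb away.

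The share of narrow gene-body peaks in the Standard list alone is given by gene group, as a description, beside 39% over all such peaks. Synaptic adhesion genes had 48.9% (1258 of 2572 peaks; 27 of 34 genes held some). The highest folds there were in Csmd1 (2.45), Adgrl3 (2.38), a latrophilin, Cntnap2 (2.37), a neurexin relative, and Lsamp (2.33). Axon guidance genes had 46.3%, led by Robo2 (2.59; 34 of 46 peaks), a receptor for Slit proteins, then Robo1, Unc5c and Sema4d. Presynaptic release genes had 43.8% (355 of 810), with Rims2 (2.30) highest, a scaffold of the active zone. Glutamate receptor genes had 43.5%, with Grin2b (2.33) and Grin2a (2.25), NMDA receptor subunits, and the kainate receptor Grik2 (2.25). GABA signalling genes had 42.7%, potassium channels 42.6% and genes of stress and glucocorticoid signalling 41.6%. In the last list Nr3c2, the mineralocorticoid receptor, had 38 of 103 peaks while Nr3c1, the glucocorticoid receptor, named after its values were seen, had 2 of 19.

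Postsynaptic scaffold (39.5%) and cyclic nucleotide genes (39.5%) stood at the overall share. The share of ELS peaks in the ELS list alone was also above its overall 9.71% in several of these groups: 16.9% in synaptic adhesion, 14% in potassium channel, 12.2% in glutamate receptor and 11.7% in axon guidance genes. Splicing (37.4%), RNA polymerase II elongation (37.6%), calcium and sodium channels (36.3%), DOT1L and its partners (34.4%) and other histone methyltransferases and demethylases (32.8%) lay under it. Of 23 genes of DOT1L and its partners 12 held such a peak, among them Mllt3 (32 of 127 peaks), a reader of acylated histones that binds DOT1L, and Aff3 (42 of 79), of the super elongation complex. Dot1l itself held none among its 3 narrow gene-body peaks. Kdm2b, a histone demethylase, held 1 of 2, at a fold of 1.77. Among cell type markers, those shared by medium spiny neurons had 264 of 684 (38.6%), with 54 in Meis2 and 23 in Pde10a, the phosphodiesterase of these neurons, beside 29 of 58 in D2-type neuron markers (all in Grik3), 12 of 26 in myelin markers (all in Mbp), 39 of 115 in astrocyte markers, 2 of 4 in endothelial markers, 0 of 2 in microglia markers and 0 of 4 in D1-type neuron markers.

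RNA did not enter the rule and was tested. Of the 5285 host genes 4748 could be tested among 14016 genes. At an adjusted p of 0.05 (edgeR's quasi-likelihood test, Benjamini-Hochberg) no host gene and none of the 14016 genes (0%) differed in any of the 3 contrasts. DESeq2 called 85 genes in ELS GFP against Standard GFP, 41 for overexpression and 2 for knockdown, of which 23, 9 and 0 were host genes. Host genes were 33.9% of the genes tested. Of the host genes called, 22 of the 23 and all 9 were lower. The directions of the other genes called were not counted. Without the libraries under 1 M counts edgeR called 7 genes in ELS GFP against Standard GFP, of which 0 were host genes. At an unadjusted p of 0.05, 422 host genes were lower and 140 higher in ELS GFP than in Standard GFP, that is 8.89% and 2.95%. Over all genes tested the shares were 7.73% lower and 4% higher, and genes with narrow Standard peaks but none in the Standard list alone had 10.1% lower. The share of lower host genes stood near that background. Their median log2 fold change was -0.06, against -0.01 over all genes. Both Standard GFP comparisons share the same 8 libraries, so their values are only set side by side.

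Host genes with more such peaks had lower medians. In ELS GFP against Standard GFP the median log2 fold change was -0.02 for host genes with 1 peak, -0.07 with 2 to 9, -0.09 with 10 to 49 and -0.11 for the 88 genes with 50 or more, and 51.9%, 58.3%, 64.7% and 69.3% of these classes were lower. Only 2 of those 88 had an unadjusted p under 0.05, both lower. Genes with narrow Standard peaks but none in the Standard list alone had a median of -0.08, and genes with ELS-only peaks -0.08. Among host genes with 20 or more narrow Standard peaks the median was -0.06 where at least 50% were in the Standard list alone. It was -0.11 where under 25% were. None of these differences between classes was tested. The 214 tested host genes with no ELS line had a median of -0.04 with 18 lower and 8 higher, and the 25 on X -0.03 with 1 lower and 1 higher. None of the 10 genes with the most peaks passed: Dlg2 stood at -0.06 (SE 0.20, adjusted p = 0.961), Lsamp at -0.24 (SE 0.20, adjusted p = 0.717) and Phactr1 at -0.53 (SE 0.28, adjusted p = 0.469), all by edgeR.

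Some cell type marker lists had negative medians in the same contrast and others positive ones. Of 9 tested astrocyte markers 9 were lower in ELS GFP, at a median of -0.55, and their summed level lay between 1927 and 3692 CPM in Standard GFP and 1413 and 2972 CPM in ELS GFP. Gfap was listed at 0 in every library. Of 14 myelin markers 13 were lower (median -0.51, sums of 606 to 1101 and 432 to 1142 CPM), and of 10 tested microglia markers 9 were lower (median -0.52, sums of 449 to 2908 and 623 to 1279 CPM, with P2ry12 and Itgam at 0 throughout). Of 14 tested medium spiny neuron markers 12 were lower (median -0.63). Medians were 0.30 for striatal interneuron markers (4 of 9 lower) and 0.18 for cortical excitatory neuron markers (2 of 6). They were 0.17 for endothelial and pericyte markers (2 of 8) and -0.29 for oligodendrocyte precursor markers (3 of 6). D1-type neuron markers had -0.83 (5 of 7 lower, 1 at an unadjusted edgeR p under 0.05). D2-type neuron markers had -0.07 (4 of 6 lower), with 2 lower and 1 higher at that p. An unadjusted p under 0.05 on the lower side was reached by 5 of the astrocyte, 3 of the myelin, 2 of the microglia and 2 of the shared medium spiny neuron markers. Their part in the host gene values was not tested. In bulk tissue, fewer cells of a type and less RNA per cell cannot be told apart.

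Most of the host genes with the smallest p had 1 to 3 libraries far above the rest of their group. DESeq2 called 5 of the 6 on the lower side, Pdik1l, Tet2, Snx25, Dek and Akap8. On the lower side, Pdik1l ranged from 0.614 to 115 CPM in Standard GFP (median 6.92) and from 0 to 6.57 CPM in ELS GFP (median 2.68), a log2 fold change of -3.21 (SE 0.68, edgeR adjusted p = 0.12). Tet2, an enzyme that oxidises 5-methylcytosine, ranged from 58.4 to 219 CPM (median 74) and from 32.9 to 67.2 CPM (median 52.95), at -1.04 (SE 0.24, edgeR adjusted p = 0.12). The groups overlapped in both genes, with 4 Standard GFP libraries above every ELS GFP library. Dek, a chromatin protein, had 6 such libraries (40.8 to 146 CPM against 34.6 to 45 CPM, log2 fold change -0.99), the most of the 6 genes, and stood at -0.80 without Standard GFP replicate 6 and -0.69 without the libraries under 1 M counts. Zfp949 (-2.83), Snx25 (-1.33) and Akap8 (-1.43) completed the lower side. Tet2 moved to -0.32 and Zfp949 to -0.44 without the libraries under 1 M counts (Standard GFP replicates 1, 4 and 5 in this contrast). Without Standard GFP replicate 6, Pdik1l moved to -2.21, Snx25 to -0.68 and Akap8 to -0.73. With limma voom weights the 6 genes stood between -0.96 (Zfp949) and -0.31 (Pdik1l).

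On the higher side 1 library carried all 6 genes. Timm17a, of the mitochondrial import machinery, ranged from 3.52 to 14.9 CPM in Standard GFP (median 8.7) and from 9.44 to 405 CPM in ELS GFP (median 11), a log2 fold change of 2.70 (SE 0.63, edgeR adjusted p = 0.12). The 405 CPM stood in ELS GFP replicate 2, whose next neighbour had 24 CPM. The same library was highest for Lmna and Lmnb1, which encode lamins of the nuclear envelope, Slc30a6, 2210404O09Rik and Muc6. Without it Timm17a stood at 0.49, Lmna at 0.68, 2210404O09Rik at 0.67, Lmnb1 at 0.45, Muc6 at 0.05 and Slc30a6 at -0.14.

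**Figure D4:**
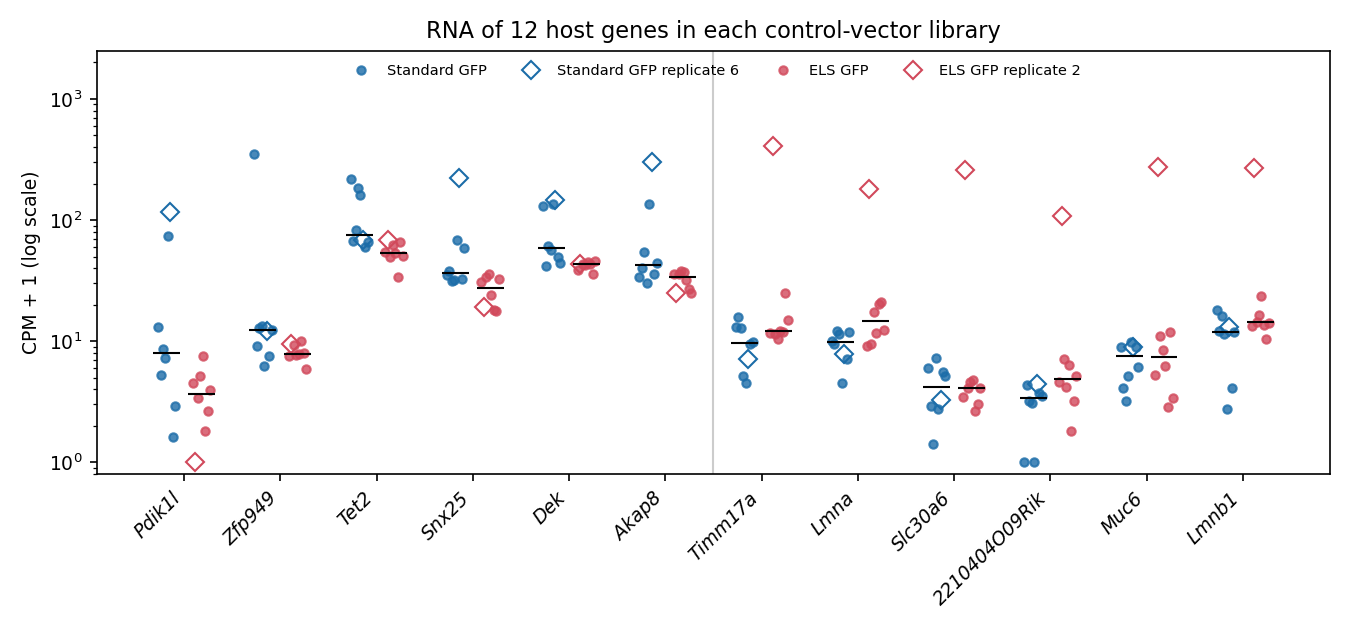
RNA level (CPM + 1, log scale) of the 12 host genes with the smallest p in ELS GFP against Standard GFP, 6 lower (left) and 6 higher (right); each point is 1 of 8 libraries per group, lines are medians, and open diamonds mark Standard GFP replicate 6 and ELS GFP replicate 2. ELS GFP replicate 2 lies far above the rest in all 6 genes on the right.

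The gene with the highest fold, Chn1, ranged from 41.4 to 91.6 CPM in Standard GFP (median 51.4) and from 30.3 to 260 CPM in ELS GFP (median 67.2), at a log2 fold change of 0.53 (SE 0.31, edgeR adjusted p = 0.53). Pparg ranged from 3.51 to 103 CPM and from 12 to 73.5 CPM, at -0.12 (SE 0.53, edgeR adjusted p = 0.966). Adora1 stood at -0.17. In all 3 genes the 2 groups overlapped.

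For overexpression DESeq2 called 9 host genes among 41 genes. Without the libraries under 1 M counts edgeR called 2 among 18, Sec22a and 6530409C15Rik. On all libraries edgeR gave no host gene past the threshold for the vectors. Dot1l, their target, had a median of 36.3 CPM in Standard GFP (10.6 to 48.5), 35.0 in ELS GFP (15.4 to 54.2), 37.7 in the libraries labelled overexpression (25.2 to 75) and 38.4 in those labelled knockdown (28.9 to 74.9), so all groups overlapped and the median under the knockdown label lay above that of ELS GFP. For overexpression against Standard GFP, 348 host genes were lower (7.33%) and 170 higher (3.58%) at an unadjusted p of 0.05, beside 6.28% and 4.59% over all genes. Between ELS GFP and the group labelled knockdown, 139 were lower in the latter (2.93%) and 83 higher (1.75%), beside 3.95% and 2.23%. Of the 88 host genes with 50 or more peaks 76 were lower with overexpression (86.4%), at a median of -0.17, and 3 had an unadjusted p under 0.05. Over all tested genes 48.5% were lower in that contrast, at a median of 0.02. The share was 59.5% for genes with ELS-only peaks and 42.7% for tested genes with no peak line in either list. It was 50.2% for genes with narrow Standard peaks but none in the Standard list alone. Under the knockdown label 57 of the same 88 genes were lower than in ELS GFP (64.8%), at a median of -0.05. None of these differences was tested. The smallest p among host genes belonged to Sec22a (-1.61), Ddr1 (-1.39) and Zfp949 (-2.69) on the lower side and Gm12258 (2.36), Cyb561d1 (3.93) and Hhat (1.38) on the higher side for overexpression. For knockdown they were Bdh1 (-1.84), Slc30a6 (-3.34) and Zbtb1 (-1.72), and Elovl2 (2.85), Ldlrad3 (1.40) and Klhl20 (1.67). A single library held 90.8% of the summed CPM of Cyb561d1 in its group, 68.9% for Gm12258 and 42.9% for Hhat with overexpression, and 84.4% for Elovl2 and 59.8% for Klhl20 under the knockdown label. ELS GFP replicate 2, the library with 260 CPM of Slc30a6, is a control in that contrast.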

How the data were processed

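Peak lists, 1 per rearing group, were deposited by the authors. Per the file headers, each peak carries a q-value and a fold, the ratio of its enrichment. Neither the caller nor how libraries were pooled is given in the sources used here. Annotation lines were reduced to distinct peaks, and overlaps and gaps were computed in Python 3.11.15 (checked on simulated intervals). Coordinates are as listed on mm10. Exons and introns were not analysed here. RNA was deposited as whole-number counts for each gene, not normalized. FastQC, HISAT2, featureCounts and DESeq2 are named in the submitters' processing notes, with no version or role. Counts were tested with edgeR 4.0.16 (TMM, filterByExpr, quasi-likelihood, 1 fit of 32 libraries). The SE was derived from the test. On simulated data for ELS GFP against Standard GFP (14016 genes), 95 of 97 genes changed 8-fold were recovered and 2 of 103 changed 2-fold. There were 5 false calls. The simulation gave every gene the same spread (a coefficient of variation of 0.566) and no single outlying library. It therefore does not give the recovery for genes of another spread. CPM uses TMM library sizes. Alternatives were DESeq2 1.42.0, RLE factors, no filter, limma 3.58.1 voom weights, libraries left out, title numbers as a block, and other overlap, width, q and fold limits. The peaks and gene lists were chosen with earlier results of these data known. Named peaks and genes are the extremes by fold, gap, width, peak number or p, up to 4 per gene list, and Dot1l and Kdm2b; some that this rule picks are not reported here. 0 columns were left unmatched.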

Additional observations from a re-analysis of the deposited data

Results flagged for a closer look

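For 17 genes whose RNA levels are given or plotted, each group of 8 control-vector libraries was checked for 1 library far from the rest, by its gap to the nearest other library relative to the group's range. Such a gap was found in 14 of 34 groups, and 12 of the 17 genes had been picked for their small p. The limit used passes about 1 group in 20 where values follow a normal distribution. It was applied to CPM without a transformation, so the rate that chance gives here is not known. ELS GFP replicate 2 stood apart in 7: Timm17a (404.9 CPM), Lmna (178.9), Slc30a6 (260.2), 2210404O09Rik (106.6), Muc6 (274.5), Lmnb1 (269.3) and Chn1 (259.6). Standard GFP replicate 6 stood apart in 4: Pparg (103 CPM), Snx25 (223.5), Akap8 (298.3) and Kdm2b (81.33). The others were Zfp949 in Standard GFP replicate 1 (348.4 CPM), Dot1l in Standard GFP replicate 5, which was low (10.57 CPM), and Pparg in ELS GFP replicate 4 (73.51 CPM).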

How the results depend on the processing

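The number of Standard-only peaks, 34109, was 47289 when 50% of a peak's own width had to be overlapped, 23124 when an ELS peak within 500 bp counted, 34107 under 2000 bp and 31644 at q of at most 0.01 in both lists. With both lists at a fold of at least 2 it was 17421, and with that limit on the Standard list alone, chosen after seeing the data, 3965. The share within 5 kb of a shared peak, 80.3%, was 76.6%, 80.7% and 67.1% under the overlap, q and fold limits, and the share of host genes with an ELS gene-body peak was 83.5% at the fold limit. Genes called were 85, 41 and 2 with DESeq2 for ELS, overexpression and knockdown, and 7 and 18 for the first 2 without the libraries under 1 M counts; the other alternatives gave 0. Host genes lower at an unadjusted p of 0.05, 422, were 228 with voom weights and from 254 to 448 when Standard GFP replicate 6 or ELS GFP replicate 2 was left out. Those higher, 140, were 75 with voom weights and from 44 to 158 with those libraries left out. Their median log2 fold change stayed negative, from -0.10 to -0.02. Slc30a6 turned to -0.11 with DESeq2, and ranged from -0.14 without ELS GFP replicate 2 to 3.39 without Standard GFP replicate 6. The cause was not tested. What the number in a library's title stands for is not stated. ELS GFP replicate 2 and Standard GFP replicate 6 share 1 such number. The mean correlation was 0.0268 between same-numbered libraries of other groups and -0.00618 between differently numbered ones. Whether the number marks a batch was not tested. With that number as a replicate block 180 host genes were lower and 130 higher, and 0 genes were called in each contrast. Over all genes 425 were lower and 490 higher with the block, against 1084 and 560 without it.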
